A study of Mus musculus with 42 samples.

Results

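The tubulin genes were followed in tissue-resident natural killer cells (trNK) of the mouse uterus. The set holds 10 genes, listed by name, of the 54353 genes that all bulk RNA-Seq tables share, and all 10 were also among the 35237 genes of a single-cell matrix. It comprises 4 alpha-tubulin genes (Tuba1a, Tuba1b, Tuba1c and Tuba4a) and 6 beta-tubulin genes (Tubb2a, Tubb2b, Tubb3, Tubb4b, Tubb5 and Tubb6). Tubb6 was chosen by its rise in mRNA level at gestational day (gd) 6.5 against virgin mice, so its values in the gestation libraries, and those of every gene in that contrast, are given as a description with no test. The bulk data were 34 libraries in 17 groups of 2, from adult wild-type C57BL/6 mice, and formed 4 experiments. In the gestation experiment, trNK were sorted from virgin, gd6.5 and gd8.5 uteri. In the subset experiment, trNK of gd8.5 were sorted by the markers CD55 and 4-1BB into trNK-V (low for both), trNK-D (intermediate) and trNK-T (high). In the inhibitor culture, trNK were kept for 3 days without IL-21, with 20 ng/mL IL-21, or with IL-21 and 1 µM Stattic, an inhibitor of the transcription factor STAT3 (labelled iSTAT3). The study's methods also put 10 ng/mL IL-15 in the medium of this culture. In the time course, trNK were kept with IL-15 (10 ng/mL in the sample labels) for 0, 6, 24 or 72 h with or without 20 ng/mL IL-21. The study started both cultures from trNK-V of gd6.5 mice, and libraries labelled with IL-21 exist at 0 h too. The single cells, sorted as live CD45+NK1.1+NKp46+, came from virgin and gd8.5 uteri of adult wild-type C57BL/6 mice as well. These cells were tagged and captured as 1 pool. Their 2 deposited tables list the same cells and split the genes between them, so the joined matrix was treated as 1 sample. No label says that the libraries of a group came from separate mice or cultures, so p-values measure the spread between libraries, which may be technical.

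Microtubules are hollow polymers of alpha- and beta-tubulin dimers. They build the mitotic spindle, carry cargo through the cell and, in killer lymphocytes, bring lytic granules to the contact with a target cell. Cells hold several alpha and beta genes, called isotypes, whose products differ mainly in their acidic tails. Tuba1b, Tuba1c, Tubb5 and Tubb4b are the widely used isotypes, Tubb3 is best known from neurons, and Tubb6 encodes the class V beta-tubulin. Tuba4a is the alpha isotype whose gene does not encode the tail's final tyrosine. Tubulin mRNA is also degraded when free tubulin dimers are in excess, through a factor (TTC5) that recognises the nascent protein.

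The RefSeq promoter table (GRCm38.p6) held 8 of the 10 genes. The following 4 promoters, each the 250 bases before the RefSeq start, are shown because Tuba1b, Tuba1c and Tuba4a were all higher in trNK-T among the gd8.5 subsets described later and because Tubb4b holds the most CCAAT boxes. They are written 5′ to 3′ on the gene's strand, with CCAAT or its reverse complement ATTGG in capitals.
Tuba1b, chr15:98934391-98934640 (-): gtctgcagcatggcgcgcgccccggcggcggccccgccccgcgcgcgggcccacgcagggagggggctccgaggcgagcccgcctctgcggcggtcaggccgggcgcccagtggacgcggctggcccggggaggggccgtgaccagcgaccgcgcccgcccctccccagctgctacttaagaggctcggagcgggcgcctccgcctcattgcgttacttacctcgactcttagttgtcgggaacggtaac
Tuba1c, chr15:99029641-99029890 (+): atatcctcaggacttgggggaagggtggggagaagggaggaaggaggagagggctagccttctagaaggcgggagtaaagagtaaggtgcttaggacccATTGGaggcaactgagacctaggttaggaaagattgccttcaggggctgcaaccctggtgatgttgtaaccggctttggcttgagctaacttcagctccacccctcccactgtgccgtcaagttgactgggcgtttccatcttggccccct
Tuba4a, chr1:75219295-75219544 (-): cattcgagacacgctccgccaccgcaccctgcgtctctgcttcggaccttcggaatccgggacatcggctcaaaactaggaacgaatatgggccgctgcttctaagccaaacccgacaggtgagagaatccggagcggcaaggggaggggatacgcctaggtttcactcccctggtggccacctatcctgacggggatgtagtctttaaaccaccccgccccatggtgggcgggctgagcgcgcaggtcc
Tubb4b, chr2:25224703-25224952 (-): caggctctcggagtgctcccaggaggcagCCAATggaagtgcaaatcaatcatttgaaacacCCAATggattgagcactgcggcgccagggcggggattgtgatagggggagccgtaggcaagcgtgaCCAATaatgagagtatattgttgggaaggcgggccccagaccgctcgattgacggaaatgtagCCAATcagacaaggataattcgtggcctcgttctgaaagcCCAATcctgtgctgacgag
The letters CCAAT, searched on both strands, occurred 5 times before Tubb4b (19, 59, 122, 188 and 221 bases from the start), 2 times before Tubb5, 1 time each before Tuba1a, Tuba1c and Tubb3, and not before Tuba1b, Tuba4a or Tubb2a. Of all 32851 promoters in the table, 33.8% held at least 1 CCAAT and 0.213% held 5 or more. The letters TTCNNNGAA, the core to which STAT proteins bind, occurred before none of the 8 genes and before 7.02% of all promoters, and TATAAA occurred before Tubb2a alone, against 12.4% of all promoters. Tuba1b, Tuba1c and Tuba4a had none of these 3 motifs in common.

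In the coordinates of the files (mm10), Tubb6 (ENSMUSG00000001473) lies at chr18:67390717-67402748 on the plus strand. Tubb2a (ENSMUSG00000058672, chr13:34074274-34078007) and Tubb2b (ENSMUSG00000045136, chr13:34126748-34130466) are neighbours on the minus strand. Tubb3 (ENSMUSG00000062380) is at chr8:123411424-123422015 (plus), Tubb4b (ENSMUSG00000036752) at chr2:25222160-25224702 (minus) and Tubb5 (ENSMUSG00000001525) at chr17:35833921-35838306 (minus). Of the alpha genes, Tuba1b (ENSMUSG00000023004, chr15:98931425-98934565, minus), Tuba1a (ENSMUSG00000072235, chr15:98949837-98953703, minus) and Tuba1c (ENSMUSG00000043091, chr15:99029891-99038110, plus) form 1 cluster, and Tuba4a (ENSMUSG00000026202) is at chr1:75214228-75219865 (minus). The RefSeq starts of the promoters differ from these limits for some genes. The promoter given for Tuba4a lies wholly within its gene limits here. Those of Tuba1b, Tuba1a, Tubb3 and Tubb5 lie partly within theirs. For these genes the motif search thus also covered sequence inside the gene as counted. The tubulin genes resemble each other, which limits how far their reads can be told apart. Of all 150-base windows of a transcript (the read length), 57.9% in Tuba1b, 54.7% in Tuba1a and 46.7% in Tuba1c also occurred unchanged in another gene, mostly in each other. For Tubb2a the share was 27.9%, all of it shared with Tubb2b, for Tubb4b it was 16.8%, and for Tubb5, Tubb6 and Tubb3 no window was shared. For Tuba4a, 37.3% of its exonic bases overlap Stk16, a kinase gene on the opposite strand, and the library kits keep no strand, so reads of this pair cannot be told apart there. Other annotated genes also overlap 27.4% of the exonic bases of Tuba1b (Gm41396 and Gm49450), 26.2% of Tuba1a (Gm49450) and 5.80% of Tubb4b (Fam166a).

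Levels are given as RPKM, that is, deposited read counts scaled to gene length and to the library's total in genes. The libraries held 11861343 to 66462748 counts in genes, and all 34 expressed the NK genes that the sort rests on. In the freshly sorted libraries Ncr1, which encodes NKp46, lay between 493 and 1022 RPKM and Klrb1c, which encodes NK1.1, between 95.5 and 367. The virgin library, replicate 1, was counted on another annotation, in which Tubb6 is 2437 bases long instead of 1757. Tubb6 is the only member affected, and its level there was 26.9 RPKM on the common length used here and 19.4 on that library's own. Some libraries held RNA of other cells. The summed B-cell markers were at 1716 RPKM in trNK-D replicate 2, nearly all of it the plasma-cell gene Jchain (1698), and the erythrocyte markers reached 224 and 844 in virgin and gd8.5 replicate 2. The 3 libraries with the fewest genes with a count belonged to 72 h of the time course, namely both without IL-21 (10724 and 11665 genes) and replicate 2 with IL-21 (12000), while all others had 13340 or more.

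By the median over the 34 libraries Tuba1b was the leading alpha isotype and Tubb4b and Tubb5 were the leading beta isotypes. Experiments and single libraries departed from this. Tubb5 led in every time course library before 72 h, with 62.3% to 75.3% of the summed beta RPKM. Tubb4b led in every library of the inhibitor culture, with 40.3% to 55.5%. The time course used another library kit, whose part was not tested. In gd6.5 replicate 1 Tubb6 (34.4%) supplied more than Tubb5 (23.5%), as did Tubb2a in both libraries with IL-21 and iSTAT3. Tuba1b did not lead in either library with IL-21 and iSTAT3, nor in replicate 2 at 72 h of the time course with or without IL-21. At 72 h Tubb6 led the beta genes in replicate 1 without IL-21 and in replicate 2 with it (34.2% and 43.6% of their summed RPKM). Tuba1b ran from 2.38 to 534 RPKM with a median of 215, Tuba1c had a median of 98.5, and Tuba1a and Tuba4a had medians of 32.9 and 31.0. Among the beta genes the medians were 93.8 RPKM for Tubb5, 88.1 for Tubb4b, 27.3 for Tubb6 and 3.93 for Tubb2a. Tubb2b had a count in 18 libraries and never exceeded 0.517 RPKM, and Tubb3 had a count in 5 and never exceeded 0.387. Both were thus at or near 0 in trNK. Genes entered the tests where RPKM was above 10 in both libraries of any group of the experiment, a filter that Tubb2b and Tubb3 never passed. Tubb2a passed it in the inhibitor experiment and, through trNK-D alone, in the subset experiment.

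At gd6.5, trNK carried more tubulin mRNA of nearly every expressed isotype than trNK of virgin mice. Tubb6 was at 26.9 and 29.8 RPKM in the virgin libraries, 241 and 124 at gd6.5, then 71.4 and 84.6 at gd8.5. Both gd6.5 libraries thus stood above all others, and both gd8.5 libraries above the virgin ones, while the gd6.5 libraries were far apart from each other. The log2 fold change of Tubb6 at gd6.5 against virgin was 2.60 (SE 0.33), at gd8.5 against virgin 1.40 (SE 0.32) and at gd8.5 against gd6.5 -1.21 (SE 0.32). In bulk samples, more cells of a type and more RNA per cell cannot be told apart.

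The widely used isotypes followed the same order. Tubb4b was at 62.5 and 83 RPKM in virgin, 285 and 174 at gd6.5, then 104 and 93.4 at gd8.5. Tubb5 was at 52.9 and 80.3, 165 and 137, and 86.5 and 89.2. Both beta genes were highest in the gd6.5 libraries, without overlap with the other days. Tuba1b, the most abundant isotype, was at 181 and 213 RPKM in virgin, 534 and 406 at gd6.5, then 243 and 217 at gd8.5. Tuba1c was at 64 and 83.5, 287 and 187, and 134 and 113. Tuba4a was at 29.5 and 36, 98.9 and 60.8, and 38.9 and 37.3. These alpha genes, too, did not overlap between gd6.5 and either other day. Tuba1a, at 19.4 and 37.7 in virgin and 58.8 and 35.5 at gd6.5, overlapped between those days, and so did Tubb2a, which stayed between 3.78 and 12.2 RPKM in all 6 libraries.

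Of the 7 members that passed the filter, 6 were higher at gd6.5 than in virgin without overlap, as were 36.4% of all genes tested, with log2 fold changes from 1.09 for Tubb5 to 2.60 for Tubb6. Among all genes tested in this contrast 6.17% were called, that is, had an adjusted p under 0.05 and a fold above 2, and nothing is read from the members' count, since the contrast served to choose them. The comparison of gd8.5 with virgin shares the virgin libraries with that contrast and is not independent of the choice of Tubb6, so it too is a description. There, with Tubb6 left out, 0 of 6 members were called by edgeR (background 0.422% of genes) and 0 of 6 by DESeq2 (background 3.64%), while 1 of 6, Tuba1c (log2 fold change 0.68, SE 0.25), and 14.2% of all genes reached an unadjusted p under 0.05. Against gd6.5, all 6 were lower at gd8.5 without overlap, as were 35.8% of all genes tested, with log2 fold changes of -1.20 for Tubb4b, -1.05 for Tuba4a, -1.01 for Tuba1b, -0.92 for Tuba1c, -0.76 for Tubb5 and -0.60 for Tuba1a. This comparison shares the gd6.5 libraries with that contrast in the same way. The test planned for it called 0 of 6 (background 0%), and nothing is read from the counts of either comparison.

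The make-up of beta-tubulin mRNA by day is a description too, since it holds the Tubb6 values that chose the gene. The share in virgin replicate 1 rests on the common gene length. On that library's own length Tubb6 was lower, at 19.4 instead of 26.9 RPKM. Tubb6 supplied 18.2% and 14.5% of the summed beta RPKM in virgin, 34.4% and 27.8% at gd6.5, then 26.2% and 31.2% at gd8.5, without overlap between virgin and either day. Among the alpha genes, Tuba1b supplied between 54.4% and 61.5% in all 6 libraries. Beside these values, the summed level of 24 mitosis genes moved in the same order, at 153 and 395 RPKM in virgin, 891 and 617 at gd6.5, then 401 and 430.4 at gd8.5. Its part in the tubulin levels was not tested. Of the other gene lists of the microtubule system, at gd8.5 against virgin, 0 genes of tubulin folding (19 tested), nucleation (4), tubulin modification (4) and microtubule-associated proteins (6) were called, and neither was any of the 3 other tubulins tested.

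**Figure D1:**
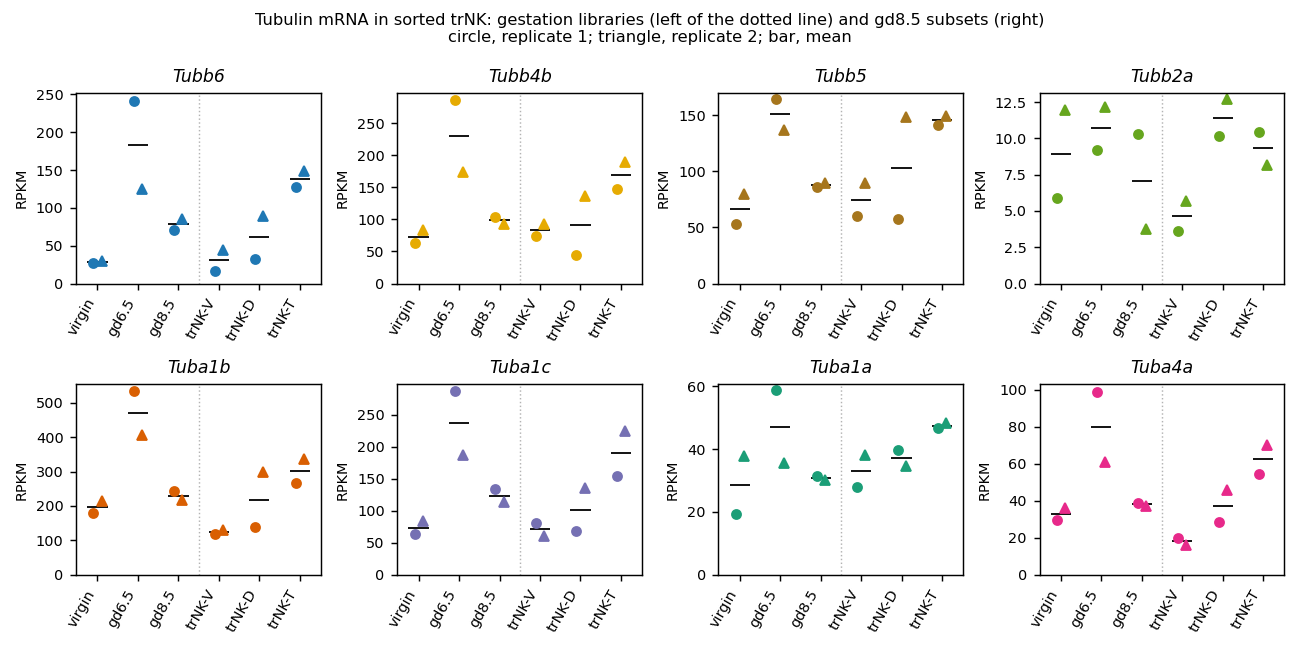
Level in RPKM (vertical axes, from 0) of the 8 expressed tubulin genes in the libraries of the gestation experiment and of the gd8.5 subsets. Symbols are single libraries and bars the mean of 2. For Tubb6 the gd6.5 libraries (241 and 124) stand above the virgin ones (26.9 and 29.8), and in all 8 panels the trNK-T libraries lie above the trNK-V libraries.

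Among the subsets of gd8.5, Tubb6 and 3 alpha-tubulin genes had more mRNA in trNK-T than in trNK-V. The question of this experiment is how the CD55 and 4-1BB classes of trNK differ. The rule that chose Tubb6 used none of its libraries, but the members were listed with earlier results of these data known. Tubb6 was at 16.9 and 44.6 RPKM in trNK-V, 32.8 and 89.6 in trNK-D and 128 and 149 in trNK-T. The trNK-T libraries lay above all others, whereas trNK-V and trNK-D overlapped. The means were 30.8 ± 19.6 (SD, n = 2) in trNK-V, 61.2 ± 40.1 in trNK-D and 138 ± 15.1 in trNK-T. Tubb6 was higher in trNK-T than in trNK-V by 2.17 on the log2 scale (SE 0.59, adjusted p = 0.0316 by edgeR).

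Of the alpha isotypes, Tuba4a, Tuba1b and Tuba1c were higher in trNK-T than in trNK-V as well. Tuba4a was at 19.9 and 16.2 RPKM in trNK-V, 28.4 and 45.7 in trNK-D and 54.5 and 70 in trNK-T, in steps without overlap. Tuba1b was at 118 and 129, 140.0 and 297, and 268 and 337, so that trNK-D and trNK-T overlapped. Tuba1c was at 81.2 and 61, 68.9 and 135, and 155 and 225. In trNK-D, replicate 1 was near the trNK-V libraries for Tuba1b and within their range for Tuba1c, and replicate 2 was higher for both. The log2 fold changes in trNK-T against trNK-V were 1.79 for Tuba4a (SE 0.28, adjusted p = 0.00640), 1.42 for Tuba1c (SE 0.36, adjusted p = 0.0253) and 1.29 for Tuba1b (SE 0.35, adjusted p = 0.0311). Stk16, which overlaps Tuba4a, differed by 0.35 between the same groups (adjusted p = 0.273).

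Thus 4 of 8 members rose in trNK-T against trNK-V and none fell, where 8.05% of all genes tested were called higher and 21.2% in either direction. The other 4 did not pass, namely Tubb4b (1.01, adjusted p = 0.140), Tubb2a (1.00, 0.0834), Tubb5 (0.97, 0.124) and Tuba1a (0.53, 0.110). All 8 were above trNK-V without overlap, as were 36.5% of all genes tested, and their median log2 fold change was 1.15, beside -0.01 over all genes tested. Of these 8, Tubb2a passed the filter only through trNK-D. The calls rest on few libraries. Leaving out trNK-V replicate 1 or trNK-T replicate 2 left Tuba4a alone, leaving out trNK-V replicate 2 left Tubb6 and Tuba4a, and leaving out trNK-T replicate 1 left Tuba1c and Tuba4a, while the share of all genes called fell to between 7.59% and 18.9%. With filterByExpr, which admits 14335 genes instead of 4683 and calls 6.75% of them, Tuba4a alone was called, while 6 of 10 members were called with no filter (7.71% of all genes) and 5 of 7 with only these groups in the fit (22.5%).

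For trNK-D, no tubulin gene was called against either other subset by edgeR with the filter on low values, while with no filter 2 of 10 members were called against trNK-V (1.8% of all genes) and 1 of 10 between trNK-T and trNK-D (2.24%). With the filter, against trNK-V, 0 of 8 members were called (background 0.32%, and 20.1% at an unadjusted p under 0.05, which 3 members reached), although all 8 log2 fold changes were positive. The largest were 1.30 for Tubb2a (adjusted p = 0.158) and 1.05 for Tuba4a (0.140). Tubb2a entered the subset tests only because both its trNK-D libraries exceeded 10 RPKM, so nothing is read from its changes in comparisons with trNK-D. Between trNK-T and trNK-D, 0 of 8 were called (background 1.75%, and 22.9% at an unadjusted p under 0.05, which 2 members reached), with log2 fold changes from -0.30 for Tubb2a to 1.16 for Tubb6 (adjusted p = 0.273). Tubb2a was at 3.62 and 5.71 RPKM in trNK-V, 10.2 and 12.7 in trNK-D and 10.5 and 8.17 in trNK-T, with the highest library in trNK-D and overlap between trNK-D and trNK-T. Tubb5, at 57.1 and 149 in trNK-D and 142 and 149.9 in trNK-T, overlapped there as well. DESeq2 called 2 of 8 in trNK-D against trNK-V, where it called 3.99% of all genes, and 0 of 8 in trNK-T against trNK-D, where it called 6.96%. The comparisons share libraries.

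**Figure D2:**
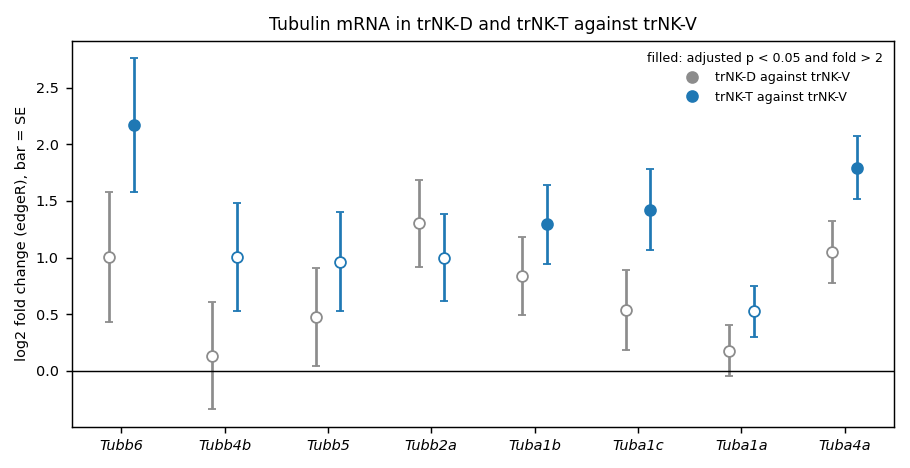
The log2 fold change (vertical axis, edgeR) of 8 tubulin genes in trNK-D (grey) and trNK-T (blue) against trNK-V, with standard errors from 2 libraries per group. Filled symbols mark the calls at an adjusted p under 0.05 and a fold above 2, which are Tubb6, Tuba1b, Tuba1c and Tuba4a in trNK-T.

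Tubb6 also took a larger share of beta-tubulin mRNA, at 10.9% and 19.1% in trNK-V, 22.6% and 23.1% in trNK-D and 29.9% and 30% in trNK-T, without overlap between the subsets. The share of Tubb4b, at 48.1% and 40.1% in trNK-V, was 31.1% and 35.3% in trNK-D and 34.6% and 38.1% in trNK-T. In 4 of the other gene lists 2 genes each were called in trNK-T against trNK-V, where 8.05% of all genes were called higher and 21.2% in either direction, and with so few calls nothing is read about these lists. Of 19 genes of tubulin folding, 2 rose, Cct6a (1.27) and Tcp1 (1.04), both subunits of the chaperonin that folds tubulin and actin. Of 6 microtubule-associated genes, 2 fell, among them Mapre2 (-1.15), a plus-end binding protein, and 0 of 4 nucleation genes, 0 of 2 modification genes and 0 of 2 other tubulins were called. Of 14 actin-cytoskeleton genes, 2 rose, Capg (1.44) and Actg1 (1.20), and of 14 mitosis genes 2 rose, Aurkb (1.77) and Bub1b (1.64), kinases of the spindle checkpoint. The summed mitosis genes were at 284 and 276 RPKM in trNK-V, 137 and 689 in trNK-D and 390.4 and 691 in trNK-T. In trNK-D they stood apart in replicate 2, the library in which Jchain was at 1698 RPKM. There Tubb6 (89.6 RPKM, against 32.8 in replicate 1) and every other tested member but Tuba1a were also higher than in replicate 1.

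Markers of other cells moved with the subsets as well. The summed level of 6 T-cell markers was 165 and 161 RPKM in trNK-V and 31.9 and 28 in trNK-T, with Cd3g leading and 2 or 3 markers at 0 per library. That of 7 macrophage markers was 48.4 and 294 in trNK-V, 262 and 352 in trNK-D and 18.2 and 14.9 in trNK-T, led by Lyz2 at 269 in trNK-V replicate 2, and that of 7 stromal markers was 51.9 and 4.60 in trNK-V and 0.513 and 0.688 in trNK-T. Other lists moved the opposite way. The summed level of 4 epithelial markers was 11.1 and 6.54 in trNK-V, 24.6 and 18.9 in trNK-D and 53.3 and 58 in trNK-T, led by Epcam, which was called higher in trNK-T than in trNK-V (log2 fold change 2.94), with 2 or 3 markers at 0 per library. That of 4 endothelial markers was 21 and 19.6, 26.7 and 34.3, and 50.1 and 50.8, most of it Pecam1, which was also called higher in trNK-T (1.23). Whether cells of these types were present, and their part in the tubulin differences, was not tested.

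In the inhibitor culture, no tubulin gene was called with IL-21 alone. Tubb6 was at 31.4 and 36.7 RPKM without IL-21 and 48.3 and 86.4 with it, without overlap, a log2 fold change of 1.15 (SE 0.43, unadjusted p = 0.0298, adjusted p = 0.452 by edgeR). In all, 0 of 8 members were called (background 0.289%, and 9.19% at an unadjusted p under 0.05, which Tubb6 reached as the only member), and DESeq2 also called 0 (background 3.9%). Tubb2a, Tuba1a, Tuba1c and Tuba4a were likewise higher without overlap, by 0.54 to 0.91 on the log2 scale, and 10.7% of all genes tested were.

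With the STAT3 inhibitor, Tuba4a was higher than without IL-21, and no member was called against IL-21 alone. Tuba4a was at 29.4 and 37.3 RPKM without IL-21, 42.7 and 50.1 with IL-21 and 106 and 105 with IL-21 and iSTAT3, where both libraries stood above all others. Tuba1b was at 253 and 136, 166 and 202, and 81 and 57.7, lowest with the inhibitor. Tuba4a rose with IL-21 and iSTAT3 against no IL-21 by 1.95 on the log2 scale (SE 0.30, adjusted p = 0.0143) and was the 1 member of 8 called, where 2.93% of genes were called higher and 4.74% in either direction. This call was lost with filterByExpr, with the replicate number as a block and on leaving out any of the 4 libraries, with adjusted p between 0.0569 and 0.129, while its log2 fold change stayed between 1.87 and 2.20. Stk16, whose exons overlap those of Tuba4a, was lower with the inhibitor, at 14.9 and 22 RPKM without IL-21 and 7.26 and 6.47 with IL-21 and iSTAT3 (log2 fold change -1.14, adjusted p = 0.139). Tuba1b differed by -1.19 (SE 0.38, adjusted p = 0.117) and did not pass.

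Against IL-21 alone, the direct comparison for the inhibitor, 0 of 8 members were called (background 2.96%, and 19.8% at an unadjusted p under 0.05). At that unadjusted level 4 of 8 passed, with log2 fold changes of 1.29 for Tuba4a (SE 0.30, adjusted p = 0.0680), -1.30 for Tuba1b (SE 0.38, 0.123), -1.21 for Tubb6 (SE 0.44, 0.185) and -0.74 for Tubb5 (SE 0.29, 0.214). DESeq2 called 2 of them, Tuba4a and Tuba1b, with 10.7% of all genes. Tubb6 was at 19.3 and 34.4 RPKM with the inhibitor, below both libraries with IL-21 alone and overlapping those without IL-21. Tubb5 was at 97.1 and 79.6 without IL-21, 75.6 and 84.1 with IL-21 and 45.2 and 43.6 with the inhibitor, lowest in the last group. Tubb4b, at 116 and 172 with IL-21 and 180.0 and 139.6 with the inhibitor, overlapped, and so did Tuba1a and Tuba1c.

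The shares of the alpha genes, given as a description, differed between the groups. Tuba4a supplied 7.12% and 11.6% of the summed alpha RPKM without IL-21, 11% and 11.2% with IL-21 and 27.5% and 33.8% with IL-21 and iSTAT3. Tuba1b supplied 61.2% and 42.1%, 43% and 45.3%, and 21% and 18.6%. In the inhibitor libraries Tuba4a supplied more than Tuba1b, which was reversed in the other 4 libraries, and Tuba1c, at 31.6% and 26%, was above Tuba4a in replicate 1 and below it in replicate 2. Among the beta genes, Tubb6 supplied 9.75% and 12% without IL-21, 16.8% and 21.5% with IL-21 and 5.97% and 12.5% with the inhibitor. Tubb2a supplied 7.11% and 13.7%, 16.6% and 14.9%, and 24.4% and 20.6%. These cultured cells held more Tubb2a than any fresh library, at 22.9 and 41.8 RPKM without IL-21 and 79.2 and 56.5 with the inhibitor. In the time course, the other culture, Tubb2a was at 4.09 RPKM or less in every library, so a high level was not common to both cultures. The experiments were processed separately and are not tested against each other.

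**Figure D3:**
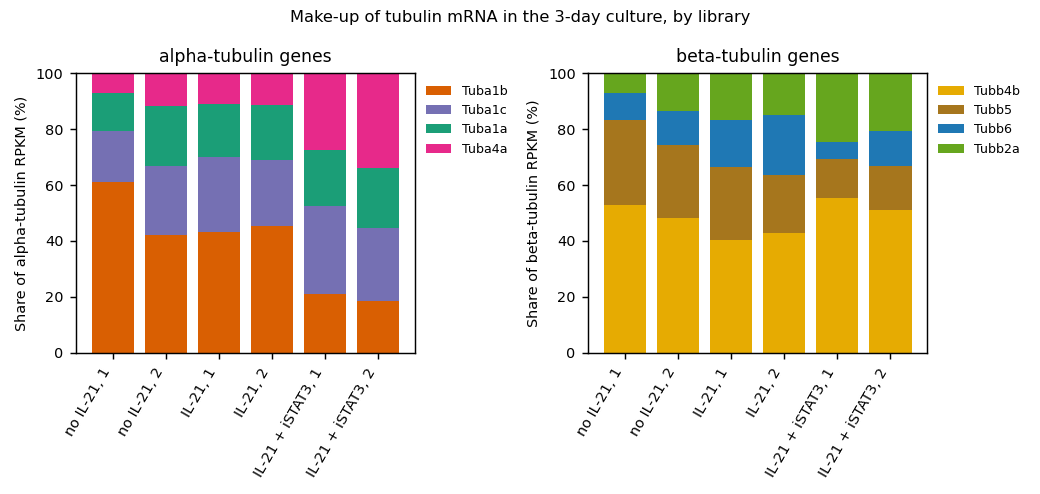
Share of each gene in the summed RPKM of the alpha-tubulin genes (left) and beta-tubulin genes (right), in percent, for the 6 libraries of the 3-day culture; Tubb2b and Tubb3 are too low to be seen and are not drawn. Tuba4a takes 27.5% and 33.8% with IL-21 and iSTAT3, and 7.12% to 11.6% in the other 4 libraries.

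The NK and mitosis genes moved in the same culture. Ncr1 was at 473 and 358 RPKM without IL-21, 146 and 156 with IL-21 and 46.8 and 77.3 with the inhibitor, and the summed mitosis genes were at 398 and 308, 239 and 165, and 107 and 81.4. The part of either in the tubulin values was not tested. Of 8 mitosis genes tested, 1 was called, Cdc20, an activator of the anaphase-promoting complex, lower with the inhibitor than in both other groups. Of all genes, 2.96% were called in either direction against IL-21 alone and 4.74% against no IL-21. Cdc20 passed the filter only through the group without IL-21, where it was highest (mean 25.8 RPKM, and 3.99 with IL-21). Nothing is therefore read from its change. Of 14 actin genes, 1 fell against IL-21 alone, Tagln2 (-1.90), where 2.96% of all genes were called in either direction. With so few calls nothing is read about the mitosis and actin lists here. No gene of the tubulin folding, nucleation, modification, microtubule-associated and other tubulin lists was called in the 3 comparisons of this culture.

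In the time course, no difference in tubulin mRNA with IL-21 was detectable at 0, 6 or 24 h, and most isotypes were far lower at 72 h without IL-21. Tubb6 was at 23.3 and 7.90 RPKM at 0 h, 23 and 11 at 6 h, 8.78 and 14.9 at 24 h and 4.94 and 0 at 72 h without IL-21. With IL-21 it was at 11.7 and 10.2, 27.8 and 46.6, 21.9 and 18.7, and 2.54 and 11.6. Its libraries with IL-21 lay above those without at 6 and 24 h, and overlapped at 0 and 72 h. The log2 fold change with IL-21 was 1.11 at 6 h (SE 1.49) and 0.68 at 24 h (SE 1.48), with adjusted p of 0.915 and 0.922. Standard errors of that size mean that a difference of 2-fold in Tubb6 was not detectable in this experiment.

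With IL-21 against none, 0 of 7 members were called at 0 h, at 6 h and at 24 h by edgeR, with 0 of 7 at an unadjusted p under 0.05 at each time, and 0 of 7 by DESeq2. The edgeR backgrounds were 0% of genes at 0 h (3.14% at an unadjusted p under 0.05), 1.97% at 6 h (12.2%) and 1.66% at 24 h (15%), and those of DESeq2 were 0%, 3.63% and 4.17%. Without the 4 libraries of 72 h, an alternative added after seeing the data, the count was 0 at each of these times too, while 0% of all genes were called at 0 h, 5.22% at 6 h and 6.31% at 24 h. Without IL-21, no difference was called between 6 h and 0 h (0 of 7 called by edgeR and DESeq2, backgrounds 0% and 0.171%, 3.03% at an unadjusted p under 0.05) and between 24 h and 6 h (0 of 7 by both, backgrounds 0.0856% and 0.371%, 5.62% at an unadjusted p under 0.05, which no member reached in either comparison), while 6 of 7 members and 34.7% of all genes tested were below their 6 h libraries without overlap at 24 h.

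Between 24 h and 72 h without IL-21, 5 of 7 members fell, where 9.82% of genes were called lower and 14.8% in either direction. Tubb5 went from 147 and 140.3 RPKM to 4.78 and 2.37 (log2 fold change -5.02, SE 0.64). Tuba1b went from 204 and 237 to 12 and 2.38 (-4.67, SE 0.97). Tuba1a went from 18.3 and 24.9 to 0.0971 and 0.0400 (-8.00, SE 0.90), and Tuba1c from 62.7 and 72.7 to 0.995 and 7.90 (-3.48, SE 0.83). All 7 lay below 24 h without overlap, as did 47.6% of all genes tested, and Tubb6 and Tubb4b did not pass. Tuba4a went from 14.5 and 10.3 RPKM to 0 counts in both libraries, at least 892-fold lower than the lower 24 h library on a floor of 3 counts over the group. Tubb2a, under the filter, was also at 0 counts in both, at least 39.4-fold lower than the lower 24 h library on the same floor. Such low levels were not seen in the inhibitor culture, also kept for 3 days without IL-21. There Tubb5 was at 97.1 and 79.6 RPKM, Tuba1b at 253 and 136 and Tuba1a at 55.3 and 69.9. No member was called with IL-21 alone in that culture. The 2 cultures were processed separately, and the cause of this difference was not tested.

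At 72 h, 3 of 7 members were called higher with IL-21 than without, though the IL-21 libraries differed widely from each other. Tubb5 was at 49 and 8.65 RPKM with IL-21 (log2 fold change 2.83, SE 0.58, adjusted p = 0.0130). Tuba1a was at 19.6 and 3.58 (7.24, SE 0.88, adjusted p = 3.41e-04). Tuba4a was at 10.3 and 0.464, where the lower library lies at least 40.2-fold above the floor of 3 counts over the group without IL-21 (adjusted p = 0.00238). Of all genes tested, 6.57% were called higher and 8.08% in either direction, and no member was called lower. Libraries did not overlap for 4 of 7 members, Tuba1c added, and for 21.6% of all genes in that direction. Tuba1c (43.2 and 11.4 with IL-21, 2.34, adjusted p = 0.0870) and Tuba1b (71.1 and 4.90, 2.22, 0.141) did not pass. Tubb4b, at 28.1 and 4.75 with IL-21 and 4.74 and 22.5 without (-0.03), and Tubb6 overlapped and did not pass either. Leaving out 1 library moved the count between 2 and 5. It was 5 without replicate 1 of the libraries without IL-21, which added Tubb6 and Tuba1b while 27.2% of all genes were called, and 5 without replicate 2 of those with IL-21, which added Tuba1b and Tuba1c while 15% were.

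Whether the response to IL-21 changed over 6, 24 and 72 h was tested as an interaction. Of 7 members, 2 passed, Tuba1a (adjusted p = 0.00314) and Tuba4a (adjusted p = 0.0207), where 3.77% of genes passed. The log2 fold change of Tuba1a with IL-21 was 0.00 at 6 h, 0.25 at 24 h and 7.24 at 72 h, and that of Tuba4a was 0.54 at 6 h and 0.64 at 24 h, with no counts without IL-21 at 72 h. Without replicate 2 of the 72 h libraries without IL-21, Tuba4a did not pass (adjusted p = 0.0589). The 72 h libraries without IL-21, and replicate 2 with IL-21, stood apart beyond tubulin. Gapdh was at 11.2 and 7.56 RPKM without IL-21 and 10.8 in that IL-21 library, against a range of 38.7 to 162 before 72 h, and Actb at 436 and 285 without IL-21 and 549 in that library, against 1003 to 2421. In replicate 1 with IL-21, Gapdh was at 68.1 and Actb at 1876. The summed mitosis genes were at 16.8 and 3.99 without IL-21 and 173 and 100.1 with it at 72 h, and at 1136 and 1094 at 24 h without IL-21. Of 13 mitosis genes, 13 fell from 24 h to 72 h without IL-21, where 9.82% of all genes tested were called lower. With IL-21 at 72 h 10 were higher, where 6.57% of all genes were. Stmn1, which encodes the tubulin-sequestering protein stathmin, fell by 5.75 on the log2 scale from 24 h to 72 h and was 2.21 higher with IL-21. From 24 h to 72 h without IL-21, 3 of 18 folding genes fell (Cct7, Cct5 and Cct8, all chaperonin subunits), along with Ckap5, which promotes microtubule growth, and 4 of 12 actin genes, among them Actb. With 9.82% of all genes called lower there and 14.8% in either direction, nothing is read from these folding and actin counts. The part of library quality in these values was not tested. No gene of these lists was called with IL-21 at 0, 6 or 24 h.

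**Figure D4:**
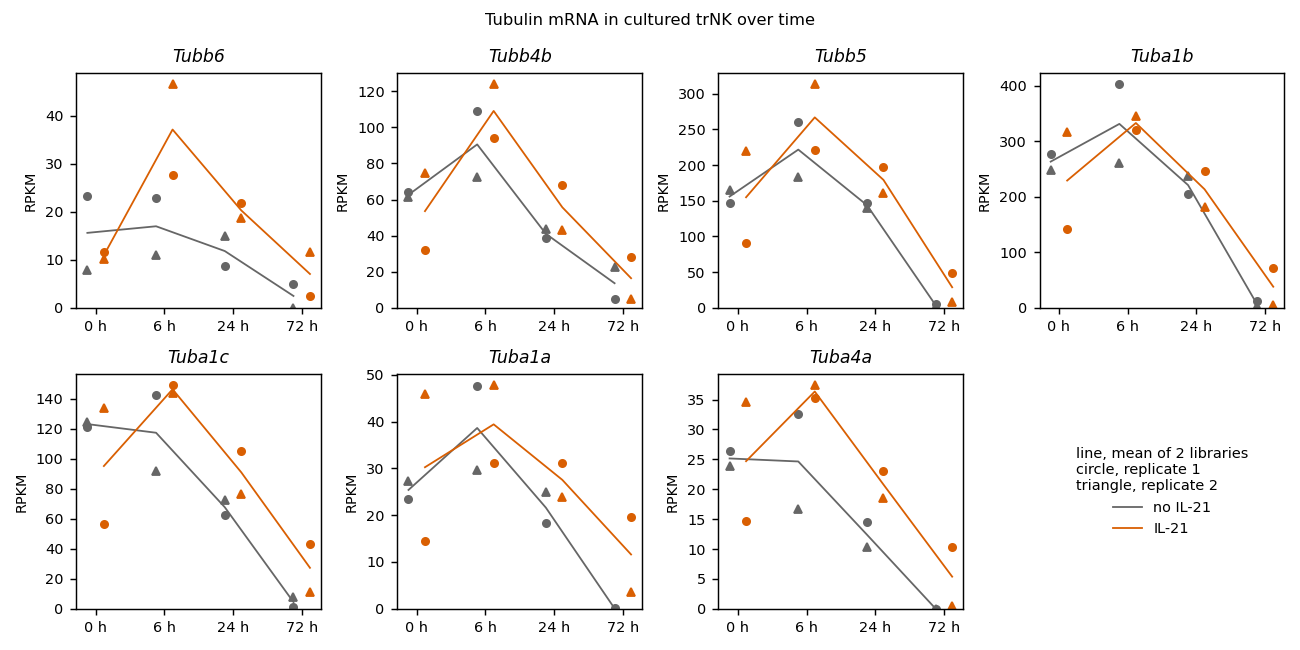
Level in RPKM (vertical axes, from 0) of 7 tubulin genes at 0, 6, 24 and 72 h (spaced evenly) in culture with IL-21 (orange) and without (grey). Symbols are single libraries and lines join the means of 2. Tuba1a and Tuba4a lie at 0.0971 RPKM or less in the 72 h libraries without IL-21, and the IL-21 libraries at 72 h differ from each other in every panel.

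Over all 34 libraries, the genes whose pattern was most like that of Tubb6 were not tubulins. On log2(RPKM + 1) centred within each experiment, and among the 2661 genes kept in all 4, Pearson's r with Tubb6 was 0.83 for Tmem97, 0.82 for Cyb5b and Timm23, and 0.81 for Ddx1 and Srm. Timm23 encodes a subunit of the mitochondrial import channel, Ddx1 an RNA helicase and Srm spermidine synthase. Among the tubulins it was 0.71 for Tubb5 (rank 104), 0.68 for Tuba1b (rank 184), 0.64 for Tuba1c, Tuba4a and Tuba1a (ranks 299, 326 and 331) and 0.58 for Tubb4b (rank 496). These correlations are a description. The points share libraries, depth and, at 72 h, the libraries that stood apart. With a pseudocount of 0.1, 3 of the 5 leading genes stayed among the first 5, while Tmem97 fell from rank 1 to rank 74 and Timm23 from 3 to 12, and without the gestation libraries 4 did.

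In single cells, 8907 of 15175 cells were kept (200 to 2500 genes and under 10% mitochondrial counts) and fell into 14 clusters, of which 4 passed the marker rule for trNK (Ncr1, Klrb1c, Eomes and Itga1). Of these, 2 with 1709 cells are called trNK-like, and 2 are left unnamed because a marker of another cell type stood among their 10 leading genes, Klra4 of conventional NK cells (cNK) in the one led by Hspa1b and Cxcr6 of type 1 innate lymphoid cells in the one led by Xcl1. The study's methods set these limits on UMIs per cell instead of genes. With them read as UMIs, Tubb6 in trNK-like cells was at 34.5 CPM instead of 80.6. The clustering left the tubulin and mitosis lists out. The cells are 1 pooled sample, so no test was made, and the exact 95% Poisson intervals on summed UMIs cover counting error only. Levels are summed UMIs scaled to the cluster's total (CPM). The rule for naming clusters was set after seeing the data. No doublets were called, and cells at or above the upper limit, with a median of 11186 UMIs against 2576 in kept cells, were left out.

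Tubb6 varied widely among these 4 clusters. It was at 92 CPM (interval 83.6 to 101) in the cluster led by the granzyme genes Gzmf, Gzme, Gzmd and Gzmg (972 cells) and at 62.6 CPM (interval 54.1 to 72.1) in the cluster led by Gzma, Klra5, Pclaf and Ube2c (737 cells). In the cluster led by Hspa1b and Cited4 (1177 cells) it was at 30.3 CPM (interval 24.8 to 36.6), and in that led by Xcl1 and Tcrg-C4 (1613 cells) at 24.4 CPM (interval 20.1 to 29.4). The intervals of the Gzmf and Gzma clusters are apart from each other and from the rest, and those of the other two overlap. The granzyme cluster, with Cd55 and Tnfrsf9 (which encodes 4-1BB) among its leading genes, had the highest level of Tubb6 among the 4. A further cluster of 555 cells led by Mt2, Mt1 and Scin reached 167 CPM (interval 153 to 183). It had Eomes at 447 CPM but Ncr1 at 97.2 and Klrb1c at 65.2, below the 282 and 232 of the granzyme cluster, and is left unnamed.

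Tuba1c followed the order of Tubb6 over these clusters, whereas Tuba1b and Tubb5 were higher in the Gzma than in the Gzmf cluster. In the Mt2, Gzmf, Gzma, Hspa1b and Xcl1 clusters, in this order, Tuba1c was at 447, 280.4, 229, 174 and 128 CPM. Tuba4a was at 129, 74.1, 66.2, 66 and 53.7. Tuba1b was at 650.5, 441, 637, 363 and 359.8, and Tubb5 at 577, 375, 483, 325 and 306. Tubb4b was at 201, 121, 139, 97.6 and 85.6, Tuba1a at 135, 86, 72.9, 73.4 and 52.1, and Tubb2a, in the opposite direction, at 2.33, 4.93, 9.68, 17.4 and 17.6. The proliferation gene Mki67 was at 117 CPM in the Gzma cluster, 45.8 in the Gzmf cluster and 18.3 in the Mt2 cluster. Among these clusters the Mt2 cluster had the most Tubb6, and also the most Tuba1b and Tubb5. Median depth was 5621 UMIs per cell in the Mt2 cluster, 5380 in the Gzmf cluster, 4329 in the Gzma cluster, 2481 in the Hspa1b cluster and 2436 in the Xcl1 cluster. Its part in these levels, which are scaled to a cluster's total UMIs, was not tested.

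Outside these clusters, Tubb6 was lower in cNK-like, T-like and B-like cells than in stromal-like and macrophage-like cells. It was at 10.8 CPM (interval 6.77 to 16.4) in cNK-like cells, 9.82 CPM (interval 3.19 to 22.9) in T-like cells and 8.24 CPM (interval 2.68 to 19.2) in B-like cells, whose intervals overlap. With no upper limit on genes per cell, B-like cells were at 43.0 CPM (interval 30.2 to 59.2) and cNK-like cells at 10.1 (6.35 to 15.3). In stromal-like cells it was at 163 CPM (interval 131 to 201) and in macrophage-like cells at 102 CPM (interval 90.3 to 114). In the unnamed clusters led by Cd209a and Mgl2 and by Ly6i and Ace it was at 81.1 CPM (interval 64.3 to 101) and 72 CPM (interval 55.8 to 91.4). The study sorted NK1.1+NKp46+ cells, yet clusters led by genes of stromal, macrophage, T and B cells were present. B-like cells, which should lack Ncr1, held it at 109 CPM, which is above its level in the Mt2 cluster; the part of free RNA and of doublets in the levels was not tested. Tuba1a was led by stromal-like cells (714 CPM) and Tubb2a by macrophage-like cells (135), whereas Tuba4a was at 14.4 in macrophage-like cells. A UMI of Tubb2b was found in 0.617% of kept cells and of Tubb3 in 0.0674%, at which expression and free RNA cannot be told apart. Tubb6 over all trNK-like cells, at 80.6 CPM, depended on which cells were kept, and its level in the cluster with the most Scin ran from 90.2 to 188 over the alternatives, always above the trNK-like level of the same setting. With the limits read as UMIs and at a resolution of 0.4, that cluster was itself trNK-like by the same rule.

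**Figure D5:**
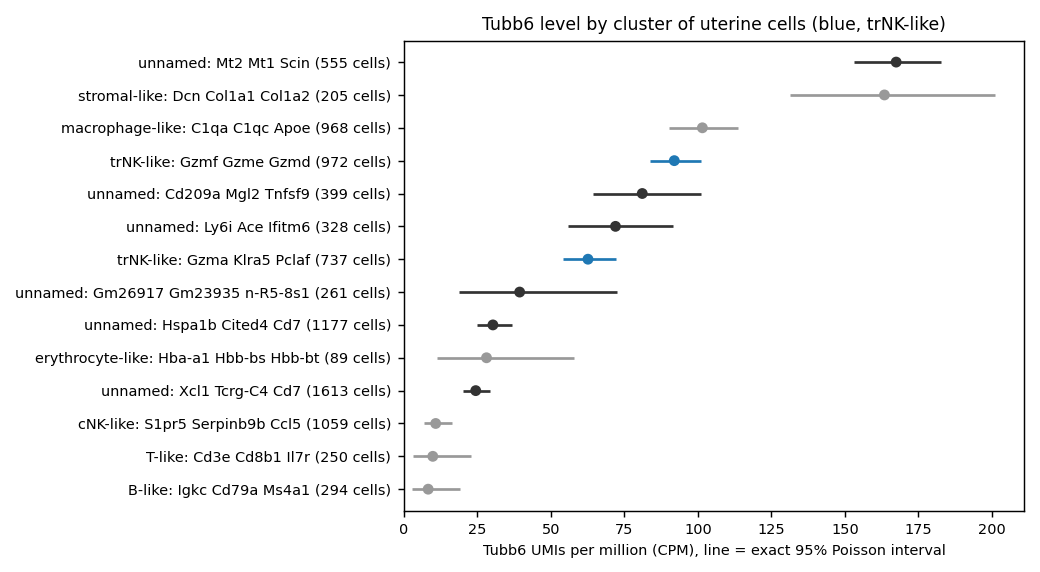
Tubb6 level in CPM (UMIs scaled to the cluster's total, horizontal axis, from 0) in the 14 clusters of uterine cells, named by their 3 leading genes, with exact 95% Poisson intervals that cover counting error only. Blue marks the trNK-like clusters, at 62.6 and 92 CPM, and the unnamed cluster led by Mt2, Mt1 and Scin is highest at 167.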

How the data were processed

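The authors deposited raw read counts per gene, which the labels' processing notes trace to HISAT2 2.1.0 on mm10 and featureCounts; the study's methods name RSEM for quantification. Libraries were made with full-length, unstranded cDNA kits, another one for the time course. Single-cell UMI counts were deposited for cells captured on BD Rhapsody. Counts of 34 libraries were joined by gene identifier over 54353 shared genes, and RPKM was computed from them with 1 common length per gene. Chromatin accessibility samples were not analysed here. All 54353 IDs carried a symbol, and no other column was left out.

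Each experiment was fitted with edgeR 4.0.16 (quasi-likelihood, TMM, no block), all its groups in 1 fit, over genes exceeding 10 RPKM in each library of at least 1 group. Benjamini-Hochberg adjustment ran over all genes, and calls needed an adjusted p under 0.05 and a fold above 2; the interaction was an F test with no fold threshold. Alternatives were DESeq2 1.42.0, limma-voom (limma 3.58.1), filterByExpr, no filter, only the groups compared, the replicate number as a block, and leaving out each library. The edgeR fit was tested on simulated data. Single cells were clustered with scanpy 1.11.5 (Leiden, resolution 0.8, 2000 variable genes).

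The members and gene lists were chosen with earlier results of these data known. In every comparison the 10 members were described, and from the other lists at most the 3 called genes with the largest change were named. A further called gene of these lists is not reported here. The genes most like Tubb6 were the 5 with the highest r. Whether the replicate numbers pair the libraries is not known. Correlations of same-numbered deviations ran from -0.51 to 0.60 over the experiments and from 0.01 to 0.40 in the subset experiment. With 2 libraries per group they cannot exclude a pairing.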

Additional observations from a re-analysis of the deposited data

Results flagged for a closer look

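The response to IL-21 differed between 6, 24 and 72 h of culture for 2 tubulin genes, by an F test of the interaction in edgeR with Benjamini-Hochberg adjustment. Tuba1a had an adjusted p of 0.00314 and Tuba4a of 0.0207. For both genes the 72 h libraries without IL-21 held few or no counts, with Tuba1a at 0.0971 and 0.0400 RPKM and Tuba4a at 0 in both. These libraries also had the fewest genes with a count, 10724 and 11665, and Gapdh at 11.2 and 7.56 RPKM. With 2 libraries per group, no library was tested as lying far from the others of its group.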

How the results depend on the processing

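Of 1236 values of single members under the alternatives, 1168 stayed on their side of the threshold, 43 passed it newly, 25 no longer passed, and none that was called changed sign; 63 that were never called did. The alternatives were applied with 1 choice changed at a time, and leaving out a library only to the comparisons that use its group. Causes of the changes below were not tested. Where a library was left out, the lone one of its group was assumed to vary like the other groups.

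The number of members tested was 6 to 8, or 9 or 10 with no filter. For the number called, gd8.5 against gd6.5, which shares libraries with the contrast that chose Tubb6 and supports nothing, gave 3 instead of 0 with DESeq2 (4.91% of all genes), with no filter (1.92%) and with only the groups compared (5.79%); the shares of all genes called follow each count in the same way. trNK-D against trNK-V gave 2 instead of 0 with DESeq2 (3.99%) and 2 with no filter (1.8%), trNK-T against trNK-D gave 1 instead of 0 with no filter (2.24%), and trNK-T against trNK-V gave 1 instead of 4 with filterByExpr (6.75%), 6 with no filter (7.71%), 5 with only the groups compared (22.5%) and 1 to 2 on leaving out a library (7.59% to 18.9%). IL-21 and iSTAT3 against IL-21 gave 2 instead of 0 with DESeq2 (10.7%). IL-21 and iSTAT3 against none gave 3 instead of 1 with DESeq2 (14%), 0 with filterByExpr (0.154%), and 0 to 0 on leaving out a library (0.393% to 1.12%). IL-21 at 72 h gave 5 instead of 3 with DESeq2 (13.6%), 4 with filterByExpr (5.07%), 6 with no filter (5.75%), and 2 to 5 on leaving out a library (6.78% to 27.2%); with only the groups compared it was 0, but 1 member was tested there and 0 of 2467 genes were called. From 24 h to 72 h the count was 8 instead of 5 with no filter (6.93%) and 3 with only the groups compared (2.53%), from 6 h to 24 h it was 1 instead of 0 (Tubb4b) with only the groups compared (1.05%), and the interaction gave 5 instead of 2 with no filter (3.18%). The counts for gd8.5 against virgin, for IL-21 against none in the inhibitor culture, for IL-21 at 0, 6 and 24 h and for 6 h against 0 h stayed at 0 under every alternative run.

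With the replicate number as a block, for which no pairing is known, the count for IL-21 and iSTAT3 against none was 0 instead of 1 (1.32% of all genes). That for trNK-T against trNK-V was 5 instead of 4 (22.4%), with Tubb5 added.

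In single cells, Tubb6 in trNK-like cells (80.6 CPM) was 34.5 with the limits read as UMIs, 56.9 with no upper limit on genes and 104 at a resolution of 0.4. In cNK-like cells (10.8) it was 5.51 with the limits read as UMIs, and in B-like cells (8.24) 43.0 with no upper limit. In the cluster with the most Scin (167) it was 90.2, 188 and 122 in the same order. Among the genes most like Tubb6, 3 of 5 stayed with a pseudocount of 0.1. With 11861343 counts or more per library, Tubb2b and Tubb3 still lay near the floor of 3 counts in most libraries and never passed the filter, so nothing is read about differences in them. The highest were 35 counts of Tubb2b in replicate 1 with IL-21 and iSTAT3 and 14 of Tubb3 in gd6.5 replicate 2. The other library of each group held 2 and 0.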
